A study of Aspergillus nidulans with 12 samples.

Results

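The 49 genes described here had a mean level at least 4 times as high in the kaeA19 and wt4 strains of Aspergillus nidulans as in the kaeA25 and wt5 strains, out of 7729 genes listed. They were chosen by the measured means: a mean above 0 in both tables, a mean of at least 150 normalized fragments in the kaeA19/wt4 table, and a ratio of the means of at least 4. The rule leaves out 8 gene IDs, of which 3 met these thresholds: AN0964, with means of 1049 in kaeA19/wt4 and 41.1 in kaeA25/wt5, AN5170, with 287 and 56.0, and AN11751, with 231 and 35.3. Because the means chose the genes, their ratios are a description and carry no test.

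RNA-Seq was run on 12 libraries from 4 strains, made from mycelium, the threadlike growth form of this filamentous fungus. Per the labels, kaeA19 carries proA6, kaeA19, pabaA9 and a biA allele numbered 2, 3 or 4 depending on the library, and its control wt4 carries proA6, pabaA9 and biA1. The study's methods instead give kaeA19 the alleles pabaA12 and biA1. The strain kaeA25 carries proA6, kaeA25, adF9, yA2 and phenA2, and its control wt5 carries proA6, adF9, yA2 and phenA2. All strains share proA6, and all were grown as mycelium in liquid minimal medium with nitrate and glucose. The pair kaeA19 and wt4 and the pair kaeA25 and wt5 differ at several marker genes besides kaeA, and both kaeA mutants are described as slow growing. Each strain is represented by 3 biological replicates.

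KaeA belongs to KEOPS, a protein complex found from yeast to humans that takes part in tRNA modification. It has also been studied for a part in the control of transcription. A. nidulans prefers ammonium and glutamine as nitrogen sources, and the uptake systems and enzymes for nitrate, amides and amino acids are made when those are scarce.

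Each table gives the authors' mean for a gene over the 6 libraries of a mutant and its control. A level in kaeA19 alone or in wt4 alone cannot be read from it, so a higher kaeA19/wt4 mean may lie in both strains or mostly in a single strain. If wt4, kaeA25 and wt5 had equal levels, a ratio of 4 would need a level in kaeA19 that is 7 times theirs. The mutant allele, the marker genes, growth and library preparation cannot be told apart in the ratio of the tables. No spread between replicates can be given, since no value per library was used, and differences below are therefore sizes with no error. The tables were normalized separately. Their means summed to 22310307 in kaeA19/wt4 and 21992765 in kaeA25/wt5, and do not give the depth of single libraries.

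The ratio of the tables was close to 1 for most genes. Over the 7283 genes above 0 in both, the median ratio was 1.03, and the central 50% of genes lay between 0.892 and 1.20. The 95th percentile was 1.98 and 1% of genes exceeded 3.98. Of the 6282 genes with a kaeA19/wt4 mean of at least 150, 0.828% met the ratio of 4, counting the 3 genes left out by ID. In the opposite direction, with the same thresholds turned round, there were 55 genes. The share of genes at a ratio of 4 or more was larger among genes with low means: 2.15% of 606 genes with a kaeA19/wt4 mean of 150 to 300, 0.98% of 1938 genes from 300 to 1000 and 0.535% of 3738 genes above 1000.

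**Figure D1:**
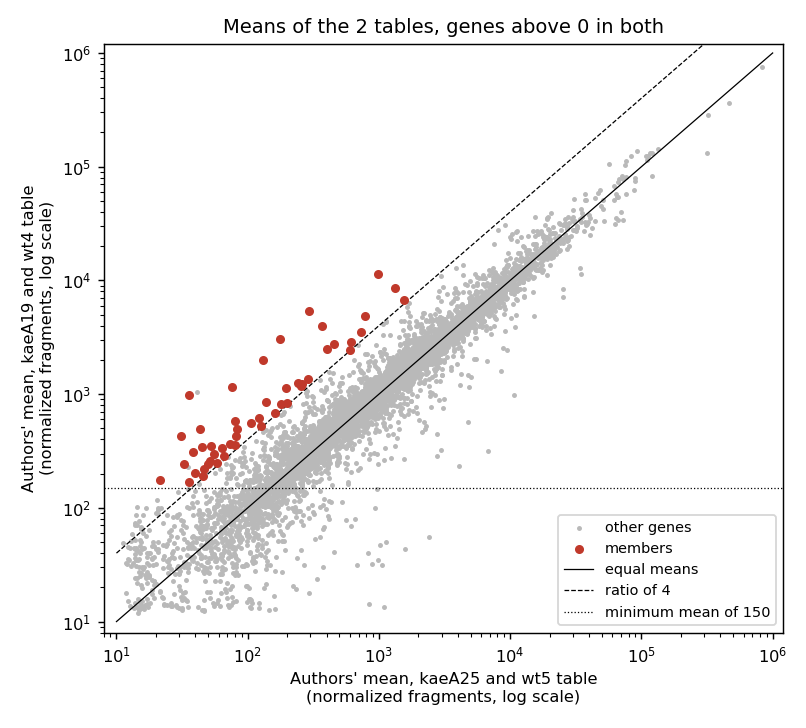
Each point is a gene with a mean above 0 in both tables, with the authors' mean for kaeA19 and wt4 on the vertical axis and for kaeA25 and wt5 on the horizontal axis, both in normalized fragments on log scales. The 49 members (red) lie above the dashed line of a ratio of 4 and above the dotted line of a mean of 150, while most of the other genes (grey) follow the line of equal means, and 3 grey points inside these limits are the genes left out by ID.

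The members had ratios from 4.04 to 27.4 with a median of 5.28. A ratio of at least 10 was found for 9 members, a ratio of 5 to 10 for 21 and a ratio of 4 to 5 for 19. Their means ran from 169 to 11296 in the kaeA19/wt4 table, with a median of 612, and from 21.5 to 1549 in the kaeA25/wt5 table, with a median of 106. The medians over all genes above 0 in both tables were 1044 and 1006. The means are not divided by gene length, so they do not rank genes by transcript level. Together they held 0.36% of the summed means in kaeA19/wt4 and 0.0544% in kaeA25/wt5.

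Many of the kaeA25/wt5 means were near the lowest value that table holds. No mean lay between 0 and 11.2 in the kaeA25/wt5 table or between 0 and 11.8 in the kaeA19/wt4 table. If a mean of that size is 1 library at the smallest listed count and 5 at 0, counts under about 67.1 normalized fragments were listed as 0. The kaeA25/wt5 mean was below 67.1 for 18 members, and their ratios are the least certain. When 55.9 fragments, the most that 5 such libraries could add, were added to each kaeA25/wt5 mean, 20 members still had a ratio of at least 4 and 47 of at least 2. This bound is approximate, since the smallest count can differ between libraries, and it assumes the most unfavourable case for every gene.

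**Figure D2:**
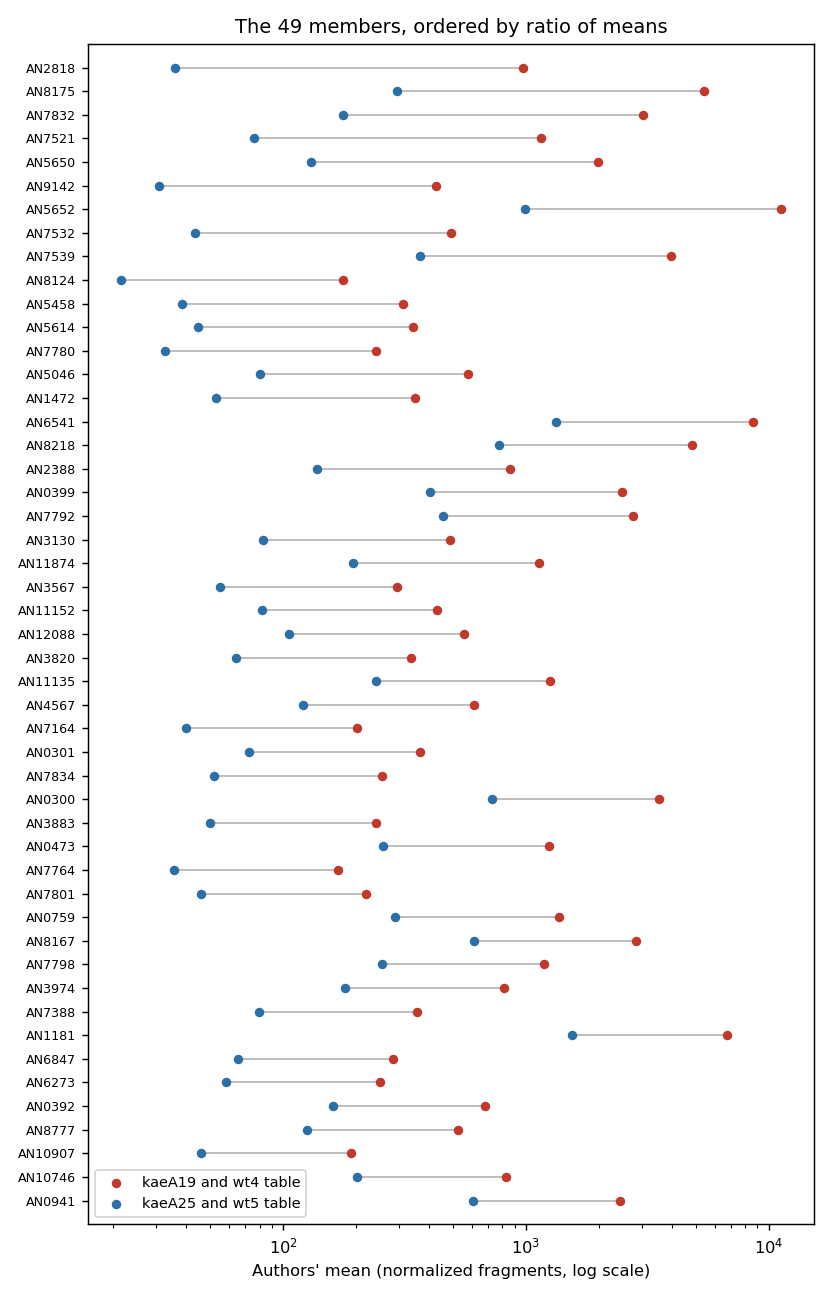
The authors' means of the 49 members are shown on a log scale in normalized fragments, for the kaeA19 and wt4 table (red) and the kaeA25 and wt5 table (blue), with genes ordered by their ratio from 27.4 for AN2818 at the top to 4.04 for AN0941 at the bottom. Of the kaeA25/wt5 means, 18 are under 67.1, and there are no error bars because the tables hold no value per library.

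A described function was found for 15 members, a gene name alone for 2, and neither for 32. The study's annotation columns cover the genes it listed and not all genes, so these counts have no background and say nothing of which functions are frequent among the members. Genes without a described function were most of the members with the largest ratios, as they were of all members. AN2818 had a mean of 977 in kaeA19/wt4 and 35.7 in kaeA25/wt5. AN7521 had 1156 in kaeA19/wt4 and 75.9 in kaeA25/wt5. AN5650 had 1981 in kaeA19/wt4 and 131 in kaeA25/wt5. For AN2818 and AN5650 the ratio stayed above 10 (10.7 and 10.6) with the added fragments, and for AN7521 it was 8.77. AN9142 and AN7532 had smaller kaeA25/wt5 means of 30.8 and 43.3, beside kaeA19/wt4 means of 425 and 492, and their ratios of 13.8 and 11.4 became 4.90 and 4.96 with the same addition.

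Genes tied to the cell surface or to secretion formed a group of 3 among the annotated members. AN7539 is annotated as a putative hydrophobin, a small protein that makes fungal surfaces water-repellent, with a transcript induced by nitrate. Its mean was 3960 in kaeA19/wt4 and 366 in kaeA25/wt5, a ratio of 10.8. AN5046 encodes anisin-1, a secreted peptide resembling the defensins of animal immunity, and had 579 in kaeA19/wt4 and 80.6 in kaeA25/wt5, a ratio of 7.18. AN7792, for a putative lysophospholipase anchored to the membrane by GPI, had 2762 in kaeA19/wt4 and 457 in kaeA25/wt5, a ratio of 6.05. The genes next to AN7539 on the chromosome had ratios of 0.915 and 0.861, and those next to AN5046 had 1.01 and 0.758, so that the difference in these cases was not shared by the neighbouring genes.

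The redox enzymes among the members also differed widely. AN7832, whose product has a flavin-binding oxidoreductase domain, had a mean of 3051 in kaeA19/wt4 and 176 in kaeA25/wt5, the third largest ratio at 17.3. AN8218, annotated as the putative thioredoxin reductase gene trxB, had 4849 in kaeA19/wt4 and 777 in kaeA25/wt5, a ratio of 6.24. Thioredoxin reductase keeps thioredoxin reduced with electrons from NADPH. AN10746, for a protein with a MOSC domain, a fold found in enzymes that handle the molybdenum cofactor, was close to the threshold with 830 in kaeA19/wt4 and 201 in kaeA25/wt5, a ratio of 4.13. Its annotation describes the transcript as repressed by nitrate, whereas that of AN7539 is described as induced by it, and both were higher in kaeA19/wt4.

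AN8175 had the second largest ratio, 18.4, with 5405 in kaeA19/wt4 and 294 in kaeA25/wt5. It is annotated only with a domain of predicted viral capsid localization. Just beside it lies AN8174, which had 314 in kaeA19/wt4 and was listed at 0 in kaeA25/wt5. AN8174 is no member, because the rule asks for a mean above 0 in both tables.

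AN6541, which RefSeq names ade1, had the second highest kaeA19/wt4 mean of the members, 8651, against 1336 in kaeA25/wt5, a ratio of 6.48. In the yeast Saccharomyces cerevisiae ADE1 encodes an enzyme of purine synthesis. The adjacent gene AN6542, named act1 for actin, had 62071 in kaeA19/wt4 and 48678 in kaeA25/wt5, a ratio of 1.28. The kaeA25 and wt5 strains carry adF9, an adenine marker, and the sources used here do not say in which gene adF9 lies. The list of 5 marker loci holds kaeA (AN6569), the biotin gene biA (AN6644), pabaA, proA and yA, but no adF or phenA gene. None of these 5 loci was a member. Their ratios ran from 0.289 for biA, with 2558 in kaeA19/wt4 and 8864 in kaeA25/wt5, to 0.969 for yA (AN6635), and kaeA had 716 in kaeA19/wt4 and 868 in kaeA25/wt5.

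The carbohydrate enzyme genes had smaller ratios. AN3883, a putative glucanase gene, had 242 in kaeA19/wt4 and 50.2 in kaeA25/wt5, and its ratio of 4.82 became 2.28 with the added fragments. AN0941, an alpha-glucosidase gene named agdC in RefSeq and agdE by the study, had 2439 in kaeA19/wt4 and 604 in kaeA25/wt5. Its ratio of 4.04 was the smallest among the members. AN0473, for a predicted transmembrane transporter, had 1240 in kaeA19/wt4 and 258 in kaeA25/wt5, a ratio of 4.80. AN5614, named prm1 after a membrane protein of mating yeast cells, and AN6273, named aspf13 after an allergen of Aspergillus fumigatus, had kaeA25/wt5 means of 44.8 and 58.3, both under the limit of 67.1.

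The nitrogen genes were the largest annotated group, with 4 members. The nitrate transporter gene nrtB (AN0399) had 2495 in kaeA19/wt4 and 404 in kaeA25/wt5, a ratio of 6.18. The putative asparaginase gene AN0300, whose enzyme releases ammonium from asparagine, had 3522 in kaeA19/wt4 and 724 in kaeA25/wt5, a ratio of 4.86. The ammonium permease gene mepA (AN1181) had 6754 in kaeA19/wt4 and 1549 in kaeA25/wt5, a ratio of 4.36. The acetamidase gene amdS (AN8777), whose enzyme frees ammonium and acetate from acetamide, had 526 in kaeA19/wt4 and 125 in kaeA25/wt5, a ratio of 4.19.

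A wider list of 16 genes of nitrogen use, which holds mepA and amdS but not nrtB or AN0300, did not move as a block. Its median ratio was 1.32, beside 1.03 over all genes. A ratio of at least 2 was found for 6 of the 16 genes, against 4.90% of all genes above 0 in both tables, and a ratio of 0.5 or less for 3, against 4.09%. Just under the threshold stood the nitrate transporter gene crnA (AN1008), with 10867 in kaeA19/wt4 and 2982 in kaeA25/wt5, a ratio of 3.64. The urea transporter gene ureA (AN0418) followed at 3.18, the GABA permease gene gabA (AN2962) at 3.10 and the nitrate reductase gene niaD (AN1006) at 2.43. The nitrite reductase gene niiA (AN1007) had a ratio of 1.86. In the other direction, the uric acid and xanthine permease gene uapA (AN6932) had 265 in kaeA19/wt4 and 1089 in kaeA25/wt5, a ratio of 0.244, and prnC (AN1733), a gene of the proline utilization cluster, had 33674 in kaeA19/wt4 and 72609 in kaeA25/wt5, a ratio of 0.464. The third gene at 0.5 or less was AN9470, at 0.363. Genes of the same uses did not all go the same way: in the proline cluster prnB (AN1732) had 1.24, prnX (AN1730) 0.991 and prnD (AN1731) 0.580, and the purine transporter gene azgA (AN8534) had 1.00.

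**Figure D3:**
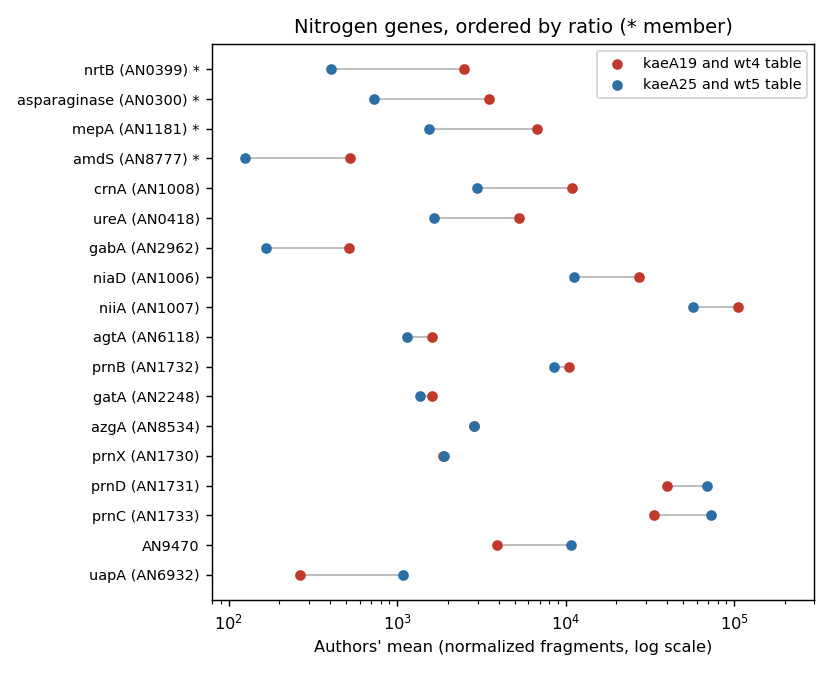
The authors' means of the 16 listed genes of nitrogen use and of the members nrtB and AN0300 are shown on a log scale in normalized fragments, for the kaeA19 and wt4 table (red) and the kaeA25 and wt5 table (blue), ordered by ratio. Members are starred, and the red points lie to the right for the members, crnA, ureA, gabA, niaD, niiA and AN6118. They lie to the left for prnD, prnC, AN9470 and uapA, and closer to the blue points for the other genes.

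The position of the genes, which the rule did not use, was uneven. RefSeq placed 47 members on a chromosome, and 13 of them were on chromosome IV. There they made up 2.42% of 537 genes with a kaeA19/wt4 mean of at least 150, against 0.621% of 5479 such genes on the other chromosomes. The other chromosomes ran from 0.335% on VII, with 3 members, to 1.02% on II, with 8.

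Part of this came from a continuous stretch of chromosome IV in which nearly every gene had a higher kaeA19/wt4 mean, whether or not it was a member. In a running median of the log2 ratio over 21 neighbouring genes, 60 genes in a row from AN7729 to AN7822 exceeded 0.5. Their median ratio was 2.27, with the central 50% between 1.87 and 3.14. A ratio of at least 1.5 was found for 56 of the 60 genes, or 93.3%, against 10.2% of all genes above 0 in both tables. The exceptions were AN7734 at 1.27, AN7743 at 1.48, AN7786 at 0.812 and AN7822 at 0.728. Of the 20 genes before the stretch, 1 reached 1.5, and their median ratio was 1.01. The same measure exceeded 0.5 elsewhere at a single gene only, on chromosome II. Runs also occurred in the opposite direction, where they were shorter. The measure was below the opposite limit in 18 genes in a row on chromosome II, from AN7884 to AN7915, with a median ratio of 0.152. It was also below that limit in 3 genes in a row on chromosome VI, with a median ratio of 0.327, and at single genes on VI and VII. None of these held a member. The stretch was found by looking along the tables and carries no test.

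The stretch held 5 members, and they stood out from a raised surrounding rather than from a flat background. AN7780 had 242 in kaeA19/wt4 and 32.5 in kaeA25/wt5, a ratio of 7.46. AN7792, the lysophospholipase gene, had a ratio of 6.05, and AN7764, AN7801 and AN7798 had ratios of 4.76, 4.76 and 4.64. Without these 5 genes the median ratio of the stretch was 2.07. Genes of the stretch with high means were raised as well, such as AN7795, with 13719 in kaeA19/wt4 and 4382 in kaeA25/wt5, AN7783, with 7757 in kaeA19/wt4 and 4025 in kaeA25/wt5, and AN7785, with 7178 in kaeA19/wt4 and 2829 in kaeA25/wt5. The first 30 genes had a median ratio of 1.96 and the last 30 genes 2.98. Of the 69 listed genes from end to end, 7 were above 0 in kaeA19/wt4 and at 0 in kaeA25/wt5, and 2 were the other way round. Over all 7729 listed genes these counts were 181 and 265.

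Beyond AN7822, 10 genes above 0 in both tables remained before the end of the chromosome in RefSeq, with a median ratio of 1.44. They included the neighbouring members AN7832, at 17.3, and AN7834, which had 256 in kaeA19/wt4 and 51.9 in kaeA25/wt5, a ratio of 4.93. They were followed by AN7836 at 2.40 and AN7839 at 2.95, while AN7830 and AN7831 just before them stood at 0.890 and 0.840. Outside the stretch so bounded, the 8 other members of chromosome IV, AN7832 and AN7834 among them, were 1.66% of 483 genes.

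**Figure D4:**
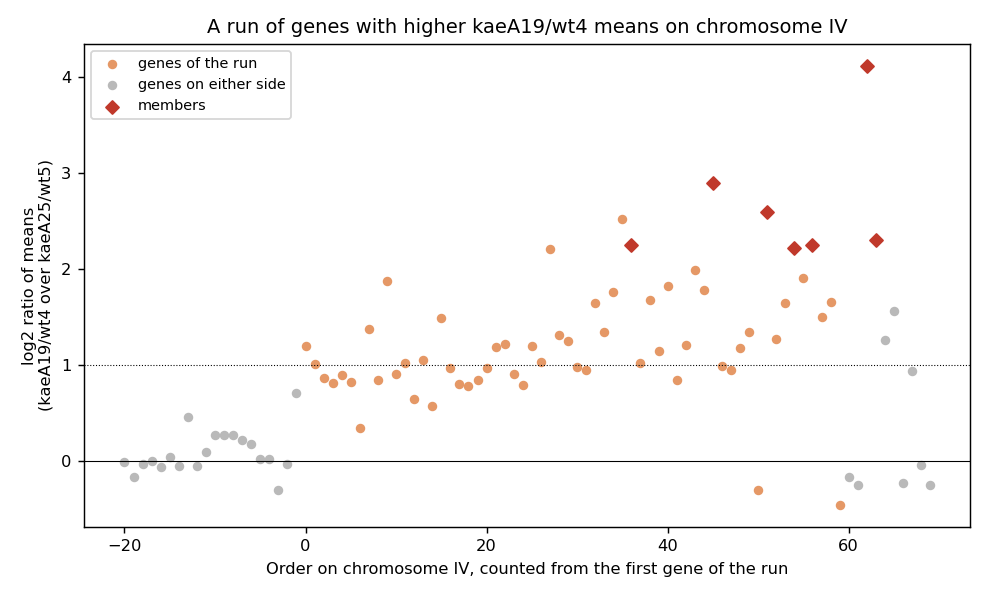
Each point is a gene above 0 in both tables, in its order on chromosome IV counted from the start of the stretch of 60 genes, with the log2 ratio of the kaeA19/wt4 mean to the kaeA25/wt5 mean on the vertical axis. The genes before the stretch lie near 0, those of the stretch (orange) mostly between 0.5 and 2.5 around the dotted line of a 2-fold ratio, and the members (red diamonds) at or above 2.

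The sterigmatocystin genes, which make a toxin related to aflatoxin, are numbered in the same region as the end of the stretch. Of the 12 genes fixed for this cluster, 4 were listed and none was a member. Among those listed, only AN7815 was above 0 in both tables and also reached the minimum kaeA19/wt4 mean of the rule. The others could not be members at any ratio, so the lack of members says little about the cluster. AN7805 and AN7815 were above 0 in both tables, with ratios of 2.83 and 3.16. Both had low means, with AN7805 at 39.4 in kaeA19/wt4 and 13.9 in kaeA25/wt5, and AN7815 at 275 in kaeA19/wt4 and 87.0 in kaeA25/wt5. AN7814, at 82.0, and AN7825, at 40.3, were above 0 in kaeA19/wt4 only.

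Outside the stretch, most members stood alone on their chromosomes. The median ratio of the genes directly beside the 42 placed members outside it was 1.09. These 42 include AN7832 and AN7834, for which the running median has no value. A neighbour with a ratio of at least 2 was nevertheless found for 13 of these 42 members, or 31.0%, against 8.36% of 6016 placed genes with a kaeA19/wt4 mean of at least 150, a figure that includes the stretch. Directly next to another member were 4 members, or 8.51% of those placed: AN0300 beside AN0301, and AN7832 beside AN7834. The share to be expected for as many genes placed without regard to position was not computed, so this share cannot be called low or high. AN0301, of no described function, had 366 in kaeA19/wt4 and 72.7 in kaeA25/wt5, a ratio of 5.03, close to the 4.86 of AN0300. Of the 55 genes of the opposite direction, 16, or 29.1%, were next to another gene of that group. The difference between these shares was not tested.

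A further group of neighbours was split by the minimum mean. AN5650 and AN5652, with ratios of 15.1 and 11.4, flank AN5651, which had 145 in kaeA19/wt4 and 35.4 in kaeA25/wt5, a ratio of 4.11, and missed the minimum of 150. AN5652 had the highest kaeA19/wt4 mean of all members, 11296, against 991 in kaeA25/wt5. The next gene on the side of AN5650 had a ratio of 1.75, and the next with a mean above 0 in both tables on the side of AN5652 had 0.601. Likewise, AN7521 lay beside AN7523 at 3.61, and AN10907 lay beside AN7211 at 3.93.

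Some members had a neighbour that differed strongly in the other direction. Beside AN2818, AN2821 had 14.2 in kaeA19/wt4 and 839 in kaeA25/wt5, a ratio of 0.0170. Beside AN7388, AN7390 had 17.7 in kaeA19/wt4 and 291 in kaeA25/wt5, a ratio of 0.0609. The kaeA19/wt4 means of AN2821 and AN7390 were near the lowest value above 0 in that table, 11.8, so the size of these ratios is uncertain. In all, 6 of the 42 members outside the stretch, or 14.3%, had a neighbour at 0.5 or less, against 6.17% of the 6016 placed genes with a kaeA19/wt4 mean of at least 150, and the difference was not tested.

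Related genes of the same genome are named in the study's annotation for a few members. It gives AN10907 as the relative of AN0759, and both were members: AN0759 had 1373 in kaeA19/wt4 and 289 in kaeA25/wt5, a ratio of 4.74, and AN10907 had 191 in kaeA19/wt4 and 46 in kaeA25/wt5, a ratio of 4.14. The sources do not tell how fragments matching both genes were counted, so their values may share fragments. AN7798 is given AN2660 as a relative, which had 178 in kaeA19/wt4 and 167 in kaeA25/wt5, a ratio of 1.07.

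Lists of developmental genes were checked for cell types other than the labelled mycelium, for which no defining marker was fixed. AN7388, fixed in the list of sexual development, was the only member among the 7 listed genes of that kind above 0 in both tables, with 355 in kaeA19/wt4 and 79.4 in kaeA25/wt5, a ratio of 4.48. The sexual development genes esdC (AN9121) and nosA (AN1848) had ratios of 3.37 and 3.12, and veA (AN1052) had 1.5, the median of the list. The regulator genes stuA (AN5836), nsdD (AN3152) and steA (AN2290) were near equal between the tables, at 1.10, 0.918 and 0.862. The mating type gene AN4734, named MAT2 in RefSeq, was listed at 0 in kaeA19/wt4 and had 45.6 in kaeA25/wt5. Of the 10 genes of asexual development above 0 in both, none was a member and the median ratio was 0.867. The conidiation regulator gene abaA (AN0422) had 57.3 in kaeA19/wt4 and 51.8 in kaeA25/wt5, and wetA (AN1937), a gene of spore maturation, had 25.9 in kaeA19/wt4 and 83.9 in kaeA25/wt5. Among the genes above 0 in both, no member was found in the 6 of siderophores and iron or the 4 of housekeeping. The 7 such genes on the list for plant cell wall breakdown held none either, and at 0.828% of genes few could be. A ratio of at least 2, found for 4.90% of all genes, was reached by 2 of the 6 siderophore and iron genes. These were mirB (AN8540) at 2.77 and AN8539 at 3.14. On the cell wall list 2 of the 7 genes reached it, xlnD (AN2359) at 2.80 and AN2018 at 3.07. AN2018 is entered there under the amylase symbol amyA, so this list is wider than cell wall enzymes. In penicillin synthesis all 3 genes went strongly the other way, with ratios of 0.0279 to 0.0354. Their kaeA19/wt4 means of 31.5 to 43.9 were near the lowest value above 0 in that table, 11.8, so the size of these ratios is uncertain.

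The members just inside the ratio threshold were AN0941 at 4.04, AN10746 at 4.13 and AN10907 at 4.14, and the genes just outside were AN7778 at 3.97, AN7211 at 3.93 and AN9295 at 3.83. Of these, AN7778 lay in the stretch on chromosome IV. At the minimum mean, the members with the lowest kaeA19/wt4 means were AN7764 at 169, AN8124 at 176 and AN10907 at 191. The genes with a ratio of at least 4 just below it were AN5651 at 145, AN7756 at 137 and AN11009 at 116, and the last 2 also lay in the stretch.

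Most of the remaining members have neither a name nor a described function in the sources used here. Those with the largest ratios had low means: AN8124 had 176 in kaeA19/wt4 and 21.5 in kaeA25/wt5, a ratio of 8.19, AN5458 had 313 in kaeA19/wt4 and 38.4 in kaeA25/wt5, a ratio of 8.16, and AN1472 had 350.5 in kaeA19/wt4 and 52.9 in kaeA25/wt5, a ratio of 6.63. In all 3 the kaeA25/wt5 mean was under the limit of 67.1. AN8124 and AN1472 each had 1 neighbour that was also higher, AN8123 at 2.73 and AN1470 at 2.61. Higher means were found for AN8167, with 2849 in kaeA19/wt4 and 610.1 in kaeA25/wt5, AN11135, with 1258 in kaeA19/wt4 and 242 in kaeA25/wt5, and AN11874, with 1134 in kaeA19/wt4 and 195 in kaeA25/wt5. AN2388, AN3974 and AN0392 had kaeA19/wt4 means of 857, 815 and 679, and ratios of 6.22, 4.52 and 4.24. The ratios of AN3130, AN3567, AN11152, AN12088, AN3820, AN4567, AN7164 and AN6847 lay between 4.33 and 5.91. RefSeq did not place AN11874 and AN12088 on a chromosome, and they are in none of the counts by position.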

How the data were processed

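Total RNA of 12 samples, 3 of each of 4 strains, was depleted of ribosomal RNA and sequenced in pairs. Per the labels and the study's methods, the authors mapped reads with TopHat2 and Bowtie2 on the FGSC A4 genome from AspGD, kept correctly oriented pairs and counted fragments per gene. The sources do not tell whether strand was used, so overlapping genes may share fragments.

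In each of the 2 deposited tables, the value used is the authors' mean signal, the normalized fragment count averaged over the 6 libraries of a mutant and its control. The 5 other columns (log2 fold change, its error, a statistic, and raw and adjusted p-values) hold the authors' own comparison and were not used. The authors name edgeR for theirs. A planned edgeR test of mutant against control needed counts per library and was not run.

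Here the kaeA19/wt4 mean was divided by the kaeA25/wt5 mean for each gene, without a pseudocount (Python 3.11.15, pandas 2.3.3, numpy 2.4.6, figures with matplotlib 3.10.9). Genes were ordered along chromosomes by matching IDs to the RefSeq annotation of assembly ASM1142v1, used for names and neighbours only; 7336 of 7729 genes matched. The stretch on chromosome IV was found with a running median over 21 genes, a rule made after the data were seen. For ratios of neighbours, the nearest genes above 0 in both tables were used. Members, and genes of the opposite direction, next to another of their group were counted along all placed genes, including those at 0 in a table.

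Named genes were the 15 members with the largest ratios, the 10 with the highest kaeA19/wt4 means, members beside each other, members on a list or with a name or function, and the 3 genes on either side of each threshold; others named were picked after their values were seen. Members, lists and rules were chosen with earlier results of these data known. Shares of members per annotation class were not computed, since the annotation covers too few genes. The steps were tested on simulated data. Scaling, thresholds, the low-count limit and the window were varied.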

Additional observations from a re-analysis of the deposited data

How the results depend on the processing

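Dividing the ratios by the median ratio or by the ratio of the summed means left 48 members each. A ratio threshold of 3 gave 98 members and a threshold of 6 gave 20, with a median ratio of 8.17. Adding 55.9 fragments to each kaeA25/wt5 mean, an alternative chosen after seeing the data and the same addition as in the report, gave 20. Of the members next to another member, 4 under the rule, there were 15 at a threshold of 3, 0 at 6, 2 with a minimum mean of 300, 9 with no minimum mean and 8 with up to 2 genes between neighbours. The stretch on chromosome IV held 60 to 65 genes, with median ratios of 2.20 to 2.27, under windows of 11 and 15 genes and under median scaling, all tried after seeing the data. Each window leaves genes at the chromosome end without a value, fewer for smaller windows, so these sizes do not show where the stretch ends. No paired analysis was possible because the tables hold no value per library, and for the same reason no replicate could be left out. Depth per library is unknown, and ratios of members with kaeA25/wt5 means under 67.1 are the least precise.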
